A study of Homo sapiens with 8 samples.

Results

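The 8 genes described here encode neurotrophins, their receptors and the sortilin-type receptors that bind proneurotrophins: NGFR, NTRK2, NTRK3, BDNF, NTF3, SORT1, SORCS1 and SORCS2. They were selected on measured values, because earlier results of the same doxycycline comparison were known, and they are 8 of 34788 gene symbols to which reads were summed. Their values under doxycycline are therefore given as a description with no test. A673 is an Ewing sarcoma cell line, and A673/TR/shFEZF1 cells carry a tetracycline repressor and an shRNA against the transcription factor FEZF1 that is expressed when doxycycline is added. RNA was sequenced from 4 control cultures, which were untreated, and from 4 cultures given 1 µg/mL doxycycline for 72 h. Each kind of culture was made once from the polyclonal population and once from clone 3, clone 5 and clone 6, and all 8 were grown under the same selection antibiotics. Each clone is 1 cell line derived from a single cell and picked for strong knock-down. Cells without the shRNA that received doxycycline were not analysed here, so an effect of the drug and an effect of the shRNA cannot be told apart.

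Neurotrophins are secreted as precursors, the proneurotrophins, which proteases cut into mature growth factors. BDNF and NT-4 (NTF4) bind the tyrosine kinase receptor TrkB (NTRK2), NT-3 (NTF3) mainly binds TrkC (NTRK3), and these receptors signal for survival and neurite growth. NGFR (p75) belongs to the tumour necrosis factor receptor family, carries an intracellular death domain and binds all neurotrophins. Together with sortilin (SORT1) or its relatives it binds proneurotrophins, and in development it marks migrating neural crest cells.

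Between 26719886 and 42422421 reads per library were assigned to transcripts, and levels are given as CPM (counts relative to library size, scaled between libraries by edgeR's TMM method) or, between genes, as TPM, which also corrects for transcript length. A count of 0 allows up to 3 reads, or 0.0707 to 0.112 CPM depending on the library, for counting error only. FEZF1, the gene the shRNA targets, was at 96.4, 70.5, 107 and 74.4 CPM in the control cultures of the polyclonal population and clones 3, 5 and 6. With doxycycline it was at 60.6, 43.0, 60.8 and 36.4 CPM. All 4 pairs showed a fall, and the fit paired by origin put it at -0.81 on the log2 scale (standard error 0.0726, adjusted p = 0.00595 by Benjamini-Hochberg in edgeR's quasi-likelihood test), and without the pairing the adjusted p was 0.29. Of 9 Ewing sarcoma markers all were detected, led by CD99 at a mean of 2589 TPM and CCND1 at 947 TPM. In this fit 1219 of 15991 genes tested (7.62%) passed the threshold of 0.05, 595 higher and 624 lower, and without the pairing 1 gene (0.00625%) did.

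Promoter windows from RefSeq (GRCh38.p14) were not available for NGFR or SORCS2. They are shown for a member with many reads (SORT1), one with few (BDNF) and one with none (NTF3). Their composition can thus be read beside those levels. Each window runs from 250 bases before to 50 bases after an annotated start, 5′ to 3′ on the strand of the gene. Capitals mark GGAA or TTCC, the core bound by ETS factors such as FLI1 read on both strands. The windows are chr1:109397869-109398168 (minus strand) for SORT1, chr11:27719517-27719816 (minus strand) for BDNF and chr12:5431858-5432157 (plus strand) for NTF3.
SORT1: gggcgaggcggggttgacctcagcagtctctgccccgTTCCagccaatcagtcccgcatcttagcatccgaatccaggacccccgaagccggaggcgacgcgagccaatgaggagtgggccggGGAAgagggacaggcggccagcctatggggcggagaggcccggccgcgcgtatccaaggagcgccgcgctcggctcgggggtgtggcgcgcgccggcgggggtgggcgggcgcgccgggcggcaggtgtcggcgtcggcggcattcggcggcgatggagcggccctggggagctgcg
BDNF: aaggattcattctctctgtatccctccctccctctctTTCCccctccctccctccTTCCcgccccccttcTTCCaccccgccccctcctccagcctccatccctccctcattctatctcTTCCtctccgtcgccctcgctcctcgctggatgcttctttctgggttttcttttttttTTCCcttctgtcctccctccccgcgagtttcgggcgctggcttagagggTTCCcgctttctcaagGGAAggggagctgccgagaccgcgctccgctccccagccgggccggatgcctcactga
NTF3: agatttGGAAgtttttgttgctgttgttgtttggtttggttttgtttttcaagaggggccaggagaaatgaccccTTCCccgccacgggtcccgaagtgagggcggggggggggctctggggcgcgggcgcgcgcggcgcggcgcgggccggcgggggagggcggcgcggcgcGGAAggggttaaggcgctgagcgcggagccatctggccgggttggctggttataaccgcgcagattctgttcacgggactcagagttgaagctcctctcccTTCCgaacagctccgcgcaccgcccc
The SORT1 window held 2 such cores, 41 CpG and 74.7% G or C. The NTF3 window held 4 cores, 32 CpG and 66.0% G or C. The median of all windows was 14 CpG. SORT1 and NTF3 each have 1 more annotated window, with 3 and 9 CpG and with 5 and 1 cores, and the window with more CpG was shown. The BDNF window was picked by another rule, as the one with the most cores of the 5 annotated for this gene. It held 7 cores and 17 CpG, and 8.3% of all windows held at least as many cores. That share is for single windows and not for the highest of 5. The BDNF window with the most CpG held 18 CpG and 3 cores. Among 35116 windows of 300 bases 95.5% held at least 1 core and the median was 3. The tandem form GGAAGGAA or TTCCTTCC occurred in 3.7% of windows and in none of the 3 shown.

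NGFR, one of 2 abundant members with SORT1, was about 2-fold higher or more in each doxycycline culture than in its control. The gene (chr17:49495293-49515008, GRCh38) had 1 transcript in the files, NM_002507.4. In the control cultures it was at 61.2 CPM in the polyclonal population, 82.9 in clone 3, 57.2 in clone 5 and 52.8 in clone 6. With doxycycline the same origins gave 125.9, 162.5, 216.2 and 102.1 CPM. The groups did not overlap, and clone 5, which was among the lower controls, had the highest level with doxycycline. Mean NGFR was thus 63.5 ± 13.4 CPM in controls and 151.7 ± 49.7 CPM with doxycycline (SD, n = 4 each). NGFR was higher in 4 of 4 pairs, by 2.06-fold in the polyclonal population, 1.96-fold in clone 3, 3.78-fold in clone 5 and 1.93-fold in clone 6. The paired fit gave a log2 fold change of 1.22 (standard error 0.156), or 2.33-fold, and 0.97 when clone 5 was left out. The file of the clone 5 control was laid out differently from the other 7, and whether this bears on the larger fold of clone 5 was not tested. The 4 members that passed the filter on low counts were NGFR, NTRK3, BDNF and SORT1. The members were chosen by this comparison, so no call from it is given for them. Because these are bulk cultures, more cells with NGFR and more NGFR RNA per cell cannot be told apart.

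**Figure D1:**
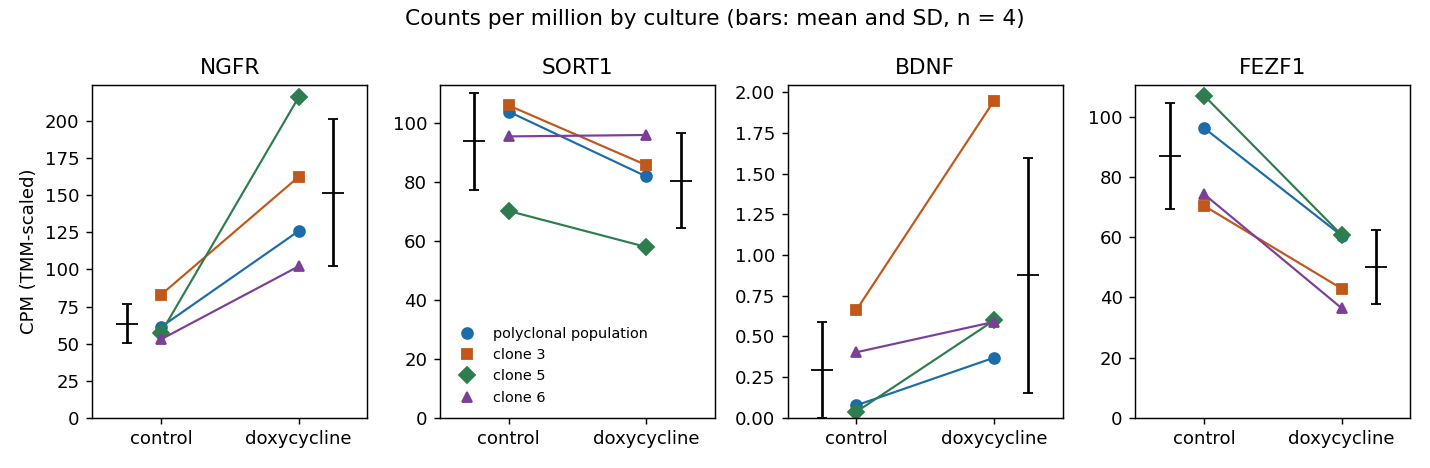
TMM-scaled CPM (y axis, from 0, a separate scale for each gene) of NGFR, SORT1, BDNF and FEZF1 in control and doxycycline cultures, with a line joining the 2 cultures of each origin and black bars for the mean and SD of 4 cultures. NGFR was 102.1 CPM or more in every doxycycline culture and 82.9 or less in every control, while the SORT1 and BDNF groups overlapped.

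An antisense transcript of the NGFR locus had more reads in each doxycycline culture than in its control, at low counts. NGFR-AS1, annotated opposite NGFR, had 16.2 estimated reads over the 4 control libraries and 70.2 over the 4 doxycycline libraries, too few to be tested. Control and doxycycline reads were 7.1 and 13.16 in the polyclonal population, 2.03 and 19.35 in clone 3, 6.03 and 35.65 in clone 5. In clone 6 they were 1.0 and 2.02, so most of the difference came from clones 3 and 5. The libraries were stranded, but the strand setting of the quantification was not stated, so reads of NGFR and NGFR-AS1 may not be fully separated. NGFR itself had 26570 reads over the 8 libraries.

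The Trk receptors that belong to the chosen set were close to absent. NTRK2, the receptor of BDNF, had 5.12 estimated reads over all 8 libraries, found in 3 of them and all on 1 of its 36 transcripts. NTRK3, the receptor of NT-3, was at 0.405, 0.284, 0.436 and 0.121 CPM in the controls and at 0.399, 0.262, 0.498 and 0 CPM with doxycycline, in the order polyclonal population, clones 3, 5 and 6. Its groups overlapped (log2 fold change -0.17, standard error 0.461). Of its 77.3 estimated reads, 77.0 were assigned to the noncoding predicted transcript XR_001751292.2 and 0.36 to coding transcripts. At these counts the assignment between transcripts of the gene is uncertain, so the coding and noncoding forms cannot be told apart.

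Set beside these receptors per length, NGFR was between 25.5 and 107 TPM over the 8 libraries, while NTRK3 reached at most 0.0499 TPM and NTRK2 at most 0.0185 TPM. NTRK3 had a mean of 0.0317 ± 0.015 TPM in controls and 0.0303 ± 0.0223 with doxycycline, against 31.8 ± 7.03 and 76.4 ± 25.5 TPM for NGFR (SD, n = 4 each). No ratio is given, because NTRK2 and NTRK3 had few or no reads in each library.

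Of the ligands, BDNF was low and was higher in each doxycycline culture. Its estimated reads were 3, 20.5, 1 and 10.1 in the controls of the polyclonal population and clones 3, 5 and 6, and 12, 67.2, 18 and 14.4 with doxycycline. In CPM these are 0.0759, 0.662, 0.0363 and 0.402 against 0.368, 1.95, 0.598 and 0.589. The groups overlapped, since the clone 3 control was above 3 of the doxycycline cultures. The log2 fold change was 1.70 (standard error 0.450), 2.14 when clone 6, the pair with the smallest difference, was left out, and 1.36 without clone 5, the pair with the largest. Reads fell on 6 of 17 BDNF transcripts, mainly NM_170733.3 with 37.5% and NM_001709.5 with 34.2%, and at these counts the assignment to a transcript changed from library to library. BDNF-AS, which overlaps BDNF in antisense, was at 0.884 ± 0.568 CPM in controls and 0.595 ± 0.261 with doxycycline (log2 fold change -0.49, standard error 0.257, edgeR's adjusted p = 0.285), lower in 4 of 4 pairs. As at the NGFR locus, sense and antisense reads may not be fully separated.

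NTF3 had 0 reads in all 8 libraries. NTF4, a ligand of NTRK2 that is no member, had 18.5 reads in total, 10.7 in controls and 7.81 with doxycycline, and was not tested. Both ligands of NTRK2 were thus low or rare in cells where that receptor was nearly undetected, and NTF3 was undetected beside NTRK3. Per length, BDNF was at 0.121 ± 0.118 TPM in controls and 0.364 ± 0.304 TPM with doxycycline, far below NGFR in every culture.

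SORT1, the sorting receptor that joins NGFR in binding proneurotrophins, was abundant, and its groups overlapped. The gene (chr1:109309575-109397918, minus strand, GRCh38) is the one whose promoter is shown above. It was at 103.7, 105.8, 70.0 and 95.3 CPM in the controls and at 81.7, 85.6, 57.8 and 95.8 with doxycycline. It was lower in 3 of 4 pairs and level in clone 6, and the log2 fold change was -0.23 (standard error 0.071). Only 63.0% of the authors' mean for SORT1 was recovered by the transcripts that could be matched, so its level is too low here and a part of its transcripts was not used. A pair of its transcripts held almost all matched reads, XM_005271100.2 with 52.1% and NM_002959.7 with 47.0%. The ratio of NGFR to SORT1 in TPM was 1.24, 1.65, 1.72 and 1.17 in the controls and 3.24, 4.0, 7.88 and 2.25 with doxycycline, without overlap, and these ratios are too high to the degree that SORT1 is too low. On the log2 scale the means were 0.51 ± 0.28 and 1.96 ± 0.76 (SD, n = 4 each). With curated transcripts only, which leaves out XM_005271100.2, they were 1.58 ± 0.51 and 3.18 ± 1.13, and the ratio was higher with doxycycline in 4 of 4 pairs on both scales. The ratio contains the NGFR values by which the gene was chosen and is a description.

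**Figure D2:**
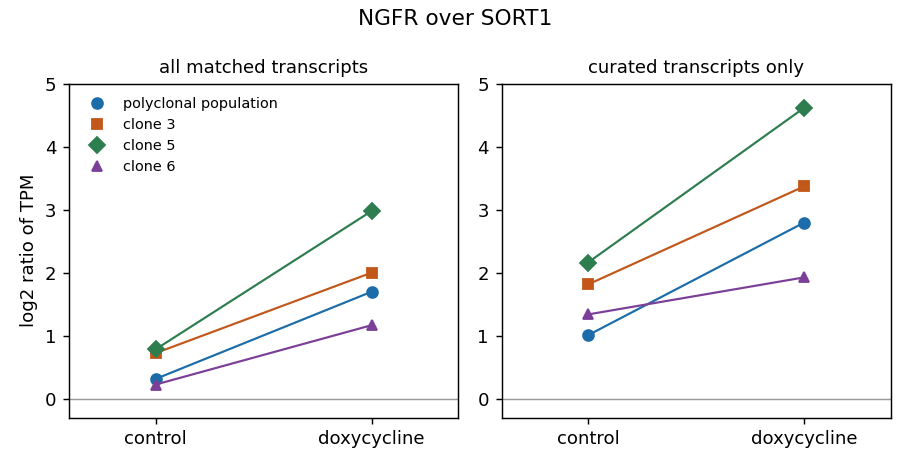
Log2 ratio of NGFR to SORT1 in TPM (y axis) in control and doxycycline cultures joined by origin, from all matched transcripts (left) and from curated transcripts only (right). The left ratios were between 0.22 and 0.78 in controls and between 1.17 and 2.98 with doxycycline, and on the right the groups overlapped.

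The other sortilin-type receptors were rare, apart from SORL1. SORCS1 had 38 reads and SORCS2 69 reads over 8 libraries, between 2 and 17 per library, and SORCS3 had 0. SORL1, a sorting receptor that is no member, was at 15.0 ± 1.88 CPM in controls and fell to 11.2 ± 2.23 with doxycycline, in 4 of 4 pairs (log2 fold change -0.44, standard error 0.099, edgeR's adjusted p = 0.0415). This call was lost when any 1 origin was left out and without the pairing (adjusted p = 0.672).

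Of the genes described here, ordered per length by the mean over both groups of libraries, NGFR came first with 54.1 TPM (range 25.5 to 107). SORT1 followed with 20.7 TPM (13.6 to 26.2) and SORL1 with 2.0 TPM (1.31 to 2.84). In the controls NGFR was at 31.8 ± 7.03 TPM and SORT1 at 22.3 ± 4.48 TPM, and since SORT1 was recovered only to 63.0%, the order of these 2 in controls is not settled. The ranges of SORT1, SORL1 and BDNF were apart from each other. BDNF was at 0.242 TPM (0.016 to 0.815), and NTF4, SORCS2, SORCS1, NTRK3 and NTRK2 had means between 0.005 and 0.128 TPM, and the ranges of neighbours in this order overlapped.

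The origin of the cells, a contrast that did not serve to choose the genes, was tested for the members that passed the filter. NTRK3 passed it only through the polyclonal population and clone 5, the origins where it was highest. BDNF passed it with all its doxycycline libraries but not all its controls. The origin tests of NTRK3 and BDNF, and the count of members below, are therefore not free of the filter. Across all genes 39.4% differed between the 4 origins at an adjusted p under 0.05, and 2 of the 4 members did, which is near this background. SORT1 was lowest in clone 5, with a mean of 63.9 CPM against 92.7 to 95.7 in the other origins (edgeR's F-test, adjusted p = 0.00983). BDNF was highest in clone 3, with 1.31 CPM against 0.222 to 0.496 in the others (adjusted p = 0.0297). Each mean averages the control and the doxycycline culture of an origin. For BDNF in clone 3 these were 0.662 and 1.95 CPM. NGFR, with means from 77.5 CPM in clone 6 to 136.7 in clone 5, was not past the threshold (adjusted p = 0.0903), and neither was NTRK3 (adjusted p = 0.0827). The NGFR mean of clone 5 joins 57.2 CPM in the control, among the lower controls, with 216.2 CPM under doxycycline. It is therefore not a high level of clone 5 in both cultures. With curated transcripts only both calls were lost (adjusted p = 0.053 for SORT1 and 0.0698 for BDNF). The SORT1 call was also lost without clone 5 (adjusted p = 0.914), and the BDNF call without clone 3 (0.319) or the polyclonal population (0.068). Without clone 5 NGFR was past the threshold (adjusted p = 0.00795), as it was under filters of at least 1 count in any library (0.0239) or at least 10 in every library (0.0458). With 1 culture of each treatment per origin, a difference between origins includes any difference between the culture dishes.

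Genes that act with or after these receptors were followed as lists. The lists also hold other ligands and sortilin-type receptors of the family and proteases of proneurotrophins. Death-domain receptors related to NGFR and the GDNF family, which do not act after these receptors, were included too. Of the 103 genes in all these lists, called pathway genes here, 90 were tested. Of these, 12 (13.3%) were past the threshold, beside 7.62% of all genes, 3 higher and 9 lower. The median log2 fold change of the 90 was -0.01, and that of all genes was 0.00. Without the pairing edgeR called 0 of them, with 15 at an unadjusted p under 0.05 (1155 of all genes), and DESeq2 called 5 (231 of all genes). Outside the neurotrophin-responsive list 7 of 78 genes (9.0%) were past the threshold. Like SORT1, some list genes were matched only in part. Of the authors' mean, 12.7% was recovered for ADAM10, 26.4% for PLCG1, 31.0% for MAPK9 and 0.0% for NRTN. The tests cover only the matched transcripts.

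Genes that neurotrophin signalling is known to induce held the largest changes of these lists, and they went both ways. Of 12 tested, 1 was higher and 4 were lower (41.7% past the threshold, beside 7.62% of all genes). VGF and EGR3 were known to change when the list was made, so this share is partly fixed by the choice of genes. ARC, an activity-regulated gene of synapses, fell from 34.3 ± 12.04 to 16.3 ± 4.78 CPM (log2 fold change -1.05, standard error 0.099, edgeR's adjusted p = 0.00595). VGF, a secreted neuropeptide precursor, fell from 7.42 ± 1.89 to 2.81 ± 0.81 CPM (log2 fold change -1.41, standard error 0.138, adjusted p = 0.00595). The zinc finger genes EGR1 and EGR3 fell with log2 fold changes of -0.68 (standard error 0.073, adjusted p = 0.00636) and -1.82 (standard error 0.340, adjusted p = 0.0235). EGR2, of the same family, rose from 17.7 ± 2.92 to 28.4 ± 5.06 CPM (log2 fold change 0.68, standard error 0.096, adjusted p = 0.0114). Each of the 5 moved in 1 direction in 4 of 4 pairs, and ARC, VGF, EGR1 and EGR2 were past the threshold also when any 1 origin was left out. FOS (log2 fold change 0.29), JUNB (-0.33) and DUSP6 (-0.21) were not past it.

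Among the 26 tested partners and proteases of NGFR, 2 (7.7%, near the 7.62% of all genes) fell and none rose. They were MAGED1, which binds the intracellular part of NGFR, at 710.8 ± 62.4 and 597.5 ± 57.2 CPM (log2 fold change -0.25, standard error 0.055, edgeR's adjusted p = 0.0378), and NCSTN, a subunit of the gamma-secretase that cuts NGFR within the membrane (log2 fold change -0.28, standard error 0.054, adjusted p = 0.0246). BEX1, another NGFR-binding protein, was higher in 3 of 4 pairs without passing the test (log2 fold change 0.25, adjusted p = 0.127). Of 33 adaptors and effectors of Trk receptors 2 (6.1%) were past the threshold, a share below that of all genes. The docking protein GAB2 rose (log2 fold change 0.37, adjusted p = 0.0313) and the kinase MAPK7 (-0.27, adjusted p = 0.0418) fell. None of these 4 calls was kept in any of the 4 fits that left out an origin.

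Of 8 proneurotrophin-cleaving proteases and their inhibitor genes tested, edgeR and DESeq2 with the pairing both called 0. By edgeR 2 of the 8 were at an unadjusted p under 0.05, as were 3971 of all 15991 genes. FURIN, the main protease of this step, was at 155.9 ± 16.3 and 145.3 ± 27.8 CPM (log2 fold change -0.11, edgeR's adjusted p = 0.351). Of 4 death-domain receptors related to NGFR, 1 (25.0%, beside 7.62% of all genes) was past the threshold. It was the TNF receptor TNFRSF1A, which fell from 85.9 ± 16.9 to 65.7 ± 10.0 CPM (log2 fold change -0.38, standard error 0.068, edgeR's adjusted p = 0.0217). Of 6 genes of the GDNF family, a separate group of neurotrophic factors, 1 (16.7%) was past the threshold. It was the ligand ARTN, which rose from 9.36 ± 0.66 to 14.7 ± 2.55 CPM (log2 fold change 0.64, standard error 0.125, edgeR's adjusted p = 0.0261). The call of TNFRSF1A held in 1 of 4 fits that left out an origin, that of EGR3 in 2 and that of ARTN in 0.

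**Figure D3:**
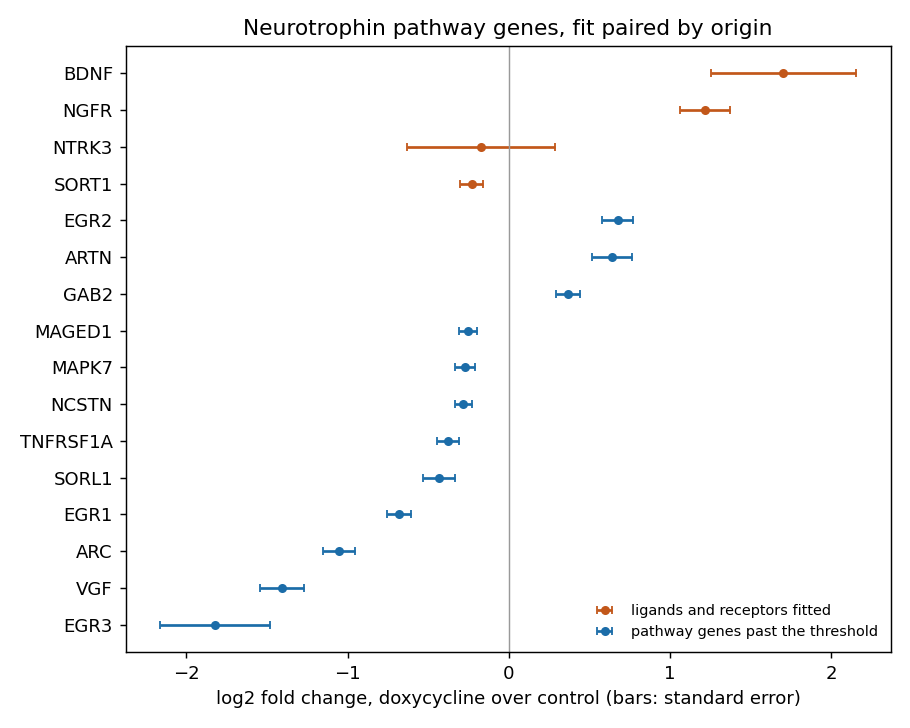
Log2 fold change of doxycycline over control in the fit paired by origin (x axis, bars show the standard error) for the ligands and receptors that were fitted (orange) and for the 12 pathway genes past the threshold (blue). EGR2, ARTN and GAB2 lie to the right of 0 and the other 9 pathway genes to the left, with EGR3 at -1.82.

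The genes whose level followed NGFR most closely over the 8 libraries were EGR2, AP2B1, LBH, ZFP36L1 and BAMBI, with Pearson's r of log2 CPM between 0.969 and 0.988 among 9442 genes with a mean of at least 10 CPM. These libraries share the treatment and the origins, so the r is a description. Taken as deviations from the group means, r was 0.961 for EGR2, 0.944 for AP2B1, 0.933 for LBH, 0.888 for ZFP36L1 and 0.858 for BAMBI. The 5 genes were picked by the highest r over these same libraries. A high r of the deviations, or a shared order of the cultures, is therefore no separate support. EGR2 was at 17.5, 21.6, 17.1 and 14.6 CPM in the controls and at 25.9, 31.2, 33.8 and 22.6 with doxycycline, in the order used above. As for NGFR, clone 5 was the highest and clone 6 the lowest of the doxycycline cultures. AP2B1 encodes a subunit of the clathrin adaptor of endocytosis and BAMBI a decoy receptor of the TGF-beta family. LBH went from 279.8 ± 23.3 to 464.8 ± 62.7 CPM and ZFP36L1, which encodes an RNA-binding protein that shortens the life of mRNAs, from 93.2 ± 10.2 to 134.2 ± 19.3 CPM.

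**Figure D4:**
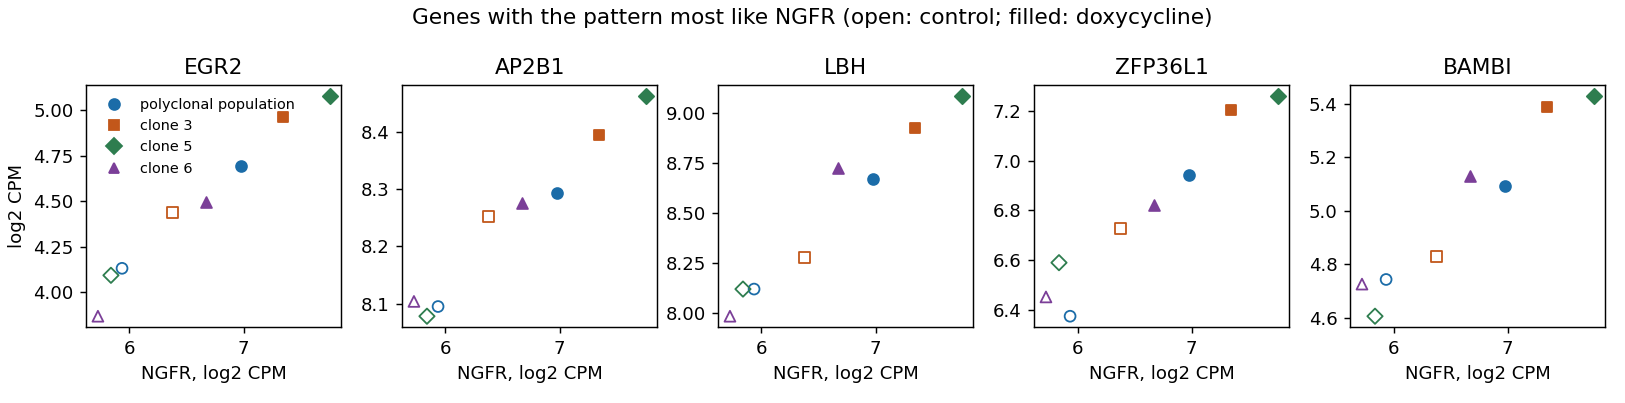
Log2 CPM (y axes, a separate scale for each gene) of the 5 genes with the pattern most like NGFR against log2 CPM of NGFR (x axis) in 8 libraries, open symbols for controls and filled symbols for doxycycline, 1 symbol shape for each origin. In all 5 panels the clone 5 doxycycline culture lies at the upper right.

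Markers of cells in which NGFR is usually high were checked beside it. Of 6 neural crest and Schwann cell markers 4 passed the filter, and the summed TPM of the 6 was 8.16 to 15.7 in the controls and 13.9 to 20.7 with doxycycline. SOX10, which marks neural crest as well as Schwann cells, had 1 read over all 8 libraries, and S100B, which marks Schwann cells, had 6. TFAP2B, a neural crest transcription factor, rose from 3.73 ± 1.49 to 10.3 ± 2.53 CPM (log2 fold change 1.49, standard error 0.191, edgeR's adjusted p = 0.00863). It was the 1 of 4 tested that passed (25.0%, beside 7.62% of all genes), and FOXD3, TFAP2A and ERBB3 did not pass the test. Of 8 mesenchymal stromal markers, among which NGFR is also known, 2 (25.0%) were past the threshold. NT5E (log2 fold change -0.47, adjusted p = 0.0116) and PDGFRB (-0.39, adjusted p = 0.030) fell. The summed TPM of the 8 was 203.0 to 360.4 in controls and 180.3 to 319.6 with doxycycline. Of the 9 Ewing sarcoma markers 3 (33.3%) were past the threshold. NR0B1 (log2 fold change 0.67, adjusted p = 0.00746) and NKX2-2 (0.30, adjusted p = 0.0414) rose and LIPI (-0.30, adjusted p = 0.0203) fell. Without the pairing edgeR kept none of these marker calls. Its adjusted p was then 0.124 for NR0B1, 0.238 for TFAP2B and 0.825 or more for NKX2-2, LIPI, NT5E and PDGFRB. Fits that left out an origin were not examined for the markers. The part of these genes in the level of NGFR was not tested.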

How the data were processed

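RNA of 8 cultures was sequenced from stranded mRNA libraries. The authors quantified reads with Salmon on GRCh38 RefSeq transcripts and deposited the estimated counts and TPM of 158867 transcripts per library. Salmon's strand setting is not given in the sources used here. The file of the clone 5 control lists transcripts in another order and with more decimals than the other 7, and whether it came from another run is not stated. The authors also deposited a DESeq2 (2.11.40.6) table whose mean column is a signal of normalized counts, used here to see how much of a gene was matched. Its 5 columns of the authors' comparison (fold change, error, statistic and p-values) were not used. Of the transcripts, 72.6% were matched to 34788 symbols, which kept 89.9% to 91.1% of reads per library.

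Estimated counts were summed per symbol, rounded, filtered with filterByExpr, scaled by TMM and fitted with edgeR 4.0.16 (quasi-likelihood, R 4.3.3), with origin as replicate block and Benjamini-Hochberg adjustment over 15991 genes at 0.05. Unadjusted p-values were counted at the same level. The fold changes per pair are ratios of CPM. Standard errors were derived from edgeR's F statistic, as the size of the log2 fold change over the square root of F. They are not the spread of the 4 pairs. The study's methods name no pairing. The block was used because the cultures of 1 origin come from the same cells, and their deviations from the group means correlated at 0.406 (polyclonal population), 0.546 (clone 3), 0.590 (clone 5) and 0.582 (clone 6), against -0.395 to 0.179 between origins. DESeq2 1.42.0, other filters, size factors, an effective-length offset, curated transcripts and leaving out each origin were alternatives, and the fit was tested on simulated data. Members, lists and tests were chosen with earlier results of these data known. The named genes are the members, FEZF1, other ligands and receptors of the family, pathway genes past the threshold and the 5 genes most like NGFR (log2 CPM, prior count 2); markers and a few list members below the threshold were named for context. A few genes of the lists, and ratios that need them, are not reported here. Nothing in the labels says that cultures were grown at separate times, so no p-value can be taken to cover repeats at separate times. With the pairing, p-values weigh the doxycycline difference against how it varied between these origins. Without the pairing they weigh it against the spread between these samples within each treatment.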

Additional observations from a re-analysis of the deposited data

Results flagged for a closer look

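In groups of 4 cultures, 1 culture stood far from the other 3 by Dixon's ratio in 1 of 34 groups examined, and chance gives about 1 in 20. BDNF was at 1.95 CPM in clone 3 with doxycycline, against 0.368 to 0.598 CPM in the other doxycycline cultures.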

How the results depend on the processing

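Without the replicate block, which here removes the pairing by origin, edgeR called 0 pathway genes (0 higher, 0 lower) and 1 gene of all, with 1155 genes at an unadjusted p under 0.05, and FEZF1 kept its log2 fold change of -0.80 with an adjusted p of 0.29. DESeq2 with the block called 22 pathway genes (6 higher, 16 lower), among them the 12 called by edgeR, and 1920 genes of all. DESeq2 without the block called 5 pathway genes, 3 of them lower, and 231 of all. With curated transcripts only, 7 pathway genes (1 higher, 6 lower), 493 genes of all and 0 members by origin were called. Leaving out 1 origin left 4 to 7 pathway genes (1 to 2 higher, 3 to 6 lower), 175 to 699 genes of all, the lowest without clone 5 and the highest without the polyclonal population, and 1 to 2 members that differed by origin. Curated transcripts and left-out origins leave fewer transcripts or samples to the fit, and otherwise the cause was not tested.

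The log2 fold change of NGFR was between 0.97 and 1.30 when an origin was left out. That of BDNF was between 1.36 and 2.14, and that of NTRK3 between -0.19 and 0.026, with -0.44 under DESeq2 with the block. NTRK3 had no value without the polyclonal population, without clone 5, with at least 10 counts in every library or with curated transcripts, because it did not pass the filter there. Of the values recomputed, 0 changed the direction of a call, and calls of single named pathway genes were lost in 53 of their refits. The mean log2 ratio of NGFR to SORT1 moved to 1.58 in controls and 3.18 with doxycycline with curated transcripts only, an alternative chosen after seeing the data. Depth limits NTRK2, NTRK3, NTF3, NTF4, SORCS1 and SORCS2, for which a change of level could not be seen.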
